A study of Homo sapiens with 12 samples.

Results

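The transcripts of 43 genes of hepatic amino acid catabolism were followed in sorafenib-resistant and parental cells of 2 hepatocellular carcinoma (HCC) lines. The genes were chosen by symbol as the enzymes with which hepatocytes break down or transaminate amino acids, and all 43 had a row in the deposited tables, out of 27249 genes with Ensembl identifiers and 98711 rows in all. The 4 groups of 3 samples each were resistant Huh7, parental Huh7, resistant HepG2 and parental HepG2. All were labelled wild type and their total RNA was sequenced. Resistant cells were the survivors of sorafenib, a multikinase inhibitor, given first at 10 μmol with a medium change after 24 h and then at rising concentrations for 8 months, whereas parental cells received no treatment. Nothing in the labels or methods says whether the replicates were separate cultures, whether each resistant line was a clone, or whether the drug was present at harvest. The p-values below therefore measure the spread between these samples, which may be technical.

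The liver is the main site at which most amino acids other than the branched-chain ones are broken down. Aminotransferases move the amino group to a keto acid, usually with pyridoxal phosphate as cofactor, and dedicated pathways then open the carbon skeleton. Phenylalanine and tyrosine end as fumarate and acetoacetate, tryptophan passes through kynurenine, histidine through urocanate to glutamate, and methionine through homocysteine to cysteine and taurine. Many of these enzymes are marks of the mature hepatocyte and are partly lost in liver tumours and in cultured hepatoma cells.

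Values were FPKM, a level scaled by gene length and library depth, so that members could be set beside each other. Between 12290105 and 19285920 reads lay behind a sample, and resistant samples were deeper than parental ones in both lines, with the shallowest in parental HepG2. Rows under NONCODE identifiers, which were left out, took 12.3 to 14.5% of the summed FPKM in resistant and 20.4 to 25.5% in parental Huh7. In HepG2 the order was the opposite, with 16.6 to 20.7% in resistant and 15.1 to 16.2% in parental samples. All 12 hepatocyte markers examined, among them ALB, TTR and HNF4A, had a mean of at least 1 FPKM in each of the 4 groups. Of 6 fibroblast and 5 endothelial markers, 1 each reached that level (PDGFRB and PECAM1), and the summed fibroblast markers lay between 1.81 and 5.34 FPKM over all samples. Of the 6 leukocyte markers, 1 in Huh7 and 2 in HepG2 reached it in a given group, and of the 5 cholangiocyte markers 3 did (KRT19, SPP1 and SOX9), while CFTR and KRT7 were near 0. The summed cholangiocyte markers were 79.8 to 102 FPKM in parental and 117 to 132 FPKM in resistant Huh7, and 156 to 199 and 237 to 258 FPKM in HepG2, but the markers did not move together. In Huh7 the mean of KRT19 was 7.18 FPKM in parental and 70.4 FPKM in resistant cells, while that of SOX9 was 78.1 and 52.3 FPKM and that of SPP1 2.11 and 1.80 FPKM. In HepG2 SPP1 was at 40.7 and 144 FPKM and KRT19 at 7.19 and 13.4 FPKM, while SOX9 was at 133 and 87.1 FPKM. The summed hepatocyte markers were 2958 to 3204 FPKM in parental and 3862 to 4298 FPKM in resistant Huh7, and overlapped between the HepG2 groups. In Huh7 the mean of APOA2 was 499.9 FPKM in parental and 1472 FPKM in resistant cells. Only ALB, at 952 and 695 FPKM, and TTR, at 391 and 328 FPKM, had a lower mean in resistant Huh7 among the hepatocyte markers. In HepG2 these markers moved both ways. The mean of APOA2 was 584 FPKM in parental and 1408 FPKM in resistant HepG2, while ALB was at 1615 and 825 FPKM and FGB at 47.3 and 11.2 FPKM. The part of depth and of these markers in the results was not tested.

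Across the 43 members, 17 had at least 1 FPKM in every sample, 3 had at least 10 FPKM in every sample and 5 stayed under 1 FPKM in every sample. The 5 low members were TDO2 and UROC1, which act in tryptophan and histidine breakdown, AMT of the glycine cleavage system, the proline dehydrogenase PRODH, and BCKDHA, a subunit of the branched-chain keto acid dehydrogenase; their highest sample values were 0.688, 0.549, 0.477, 0.03 and 0.578 FPKM. AMT and BCKDHA share 63.1% and 63.8% of their exon bases with a readthrough gene on the same strand, so reads may have been divided or dropped there. The members at the highest mean were HGD, with 108 ± 5.01 FPKM (SD, n = 3), and GOT2 in parental Huh7. In resistant Huh7 they were GOT2, with 161 ± 8.69 FPKM, and HGD. GOT1 and GOT2 led in parental HepG2, with 151 ± 31.9 and 143 ± 28.3 FPKM, a difference smaller than the spread between replicates. GOT2 led in resistant HepG2, with 109.8 ± 11.3 FPKM.

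**Figure D1:**
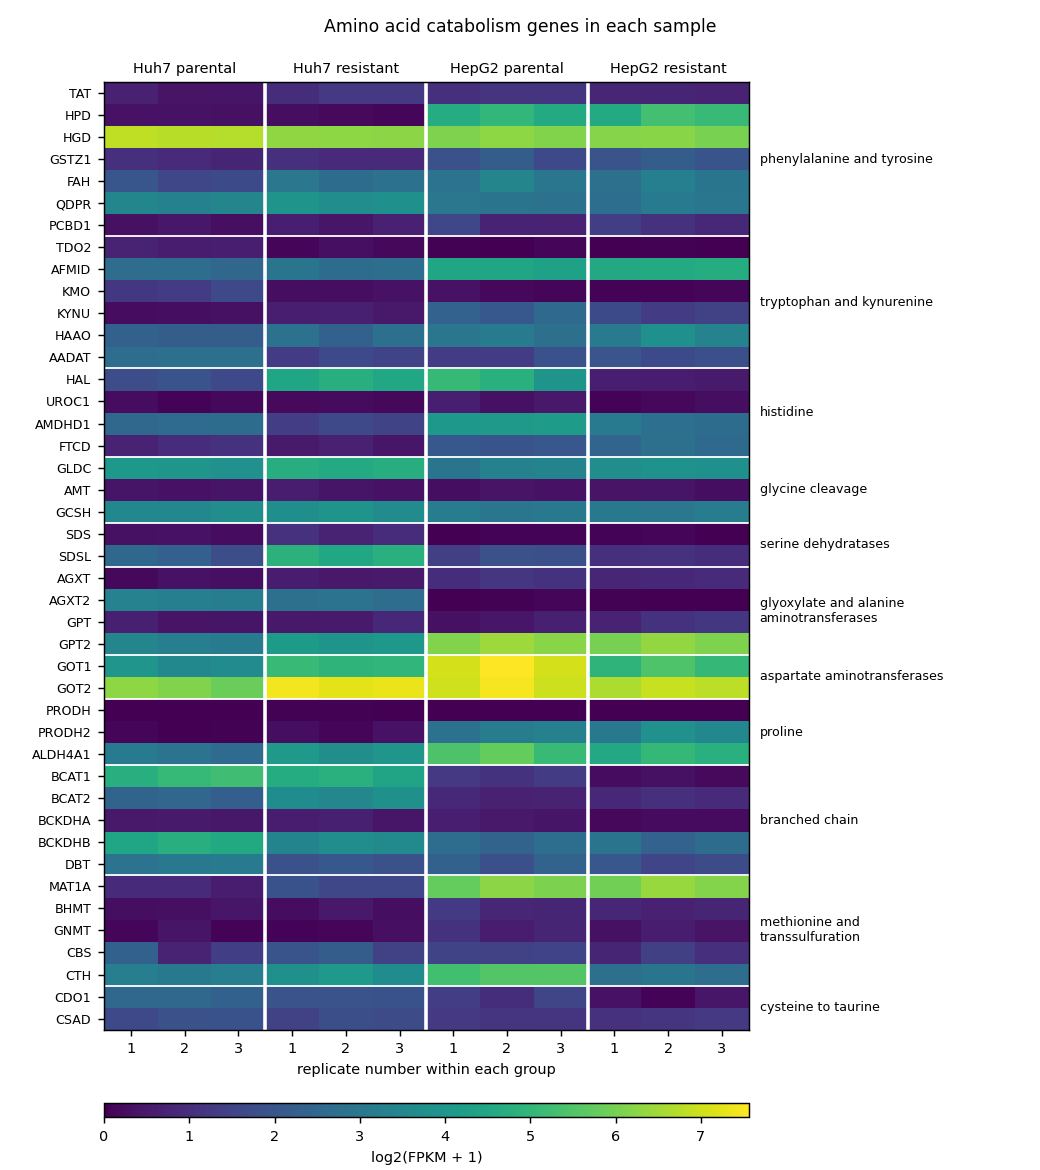
Level of each of the 43 members in each of the 12 samples, as log2(FPKM + 1), with genes in rows by pathway and samples in columns by group and replicate. HGD and GOT2 are bright in every group, HPD and MAT1A are bright in HepG2 alone, and HAL is dark in parental Huh7 and resistant HepG2 but bright in the other two groups.

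Resistant cells were compared with parental cells within each line, on log2(FPKM + 1) among genes that reached 1 FPKM in 3 or more of the line's 6 samples. A gene was called when its Benjamini-Hochberg adjusted p-value in limma was under 0.05 and its log2 fold change was beyond 1. In Huh7, 27 members could be tested, of which 7 were higher in resistant cells (HAL, SDSL, GOT1, BCAT2, GOT2, FAH and ALDH4A1), against 8.59% of all 12554 genes tested. Another 5 members were lower (AADAT, KMO, AMDHD1, DBT and BCKDHB), against 14% of all genes. With the adjusted p-value alone, 14 members were higher and 9 lower, where 32.7% and 37.4% of all genes were. The resistant and parental samples did not overlap for 22 of the 27 members, against 74.5% of all genes, so that a lack of overlap alone was common in this line. The median log2 fold change was 0.38 over the tested members and -0.04 over all genes. The median over members was 0.21 without Huh7 resistant replicate 2 and 0.15 over all 43 members when low values were kept.

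In HepG2, 30 members could be tested, none was called higher (3.29% of all 11762 genes) and 5 were lower (2.98% of all genes), namely HAL, CTH, GOT1, AMDHD1 and CDO1. With the adjusted p-value alone, 2 members were higher (FTCD and GLDC, against 11.6% of all genes) and 8 lower (against 8.43%), the latter adding BCAT1, KYNU and SDSL. At an unadjusted p-value under 0.05, 3 members were higher and 11 lower in limma, and the share of all genes at that threshold is not given here. Limma-voom on the reads behind the values also called none higher and called 8 lower, against 683 and 493 of all 11760 genes. The groups did not overlap for 15 of the 30 members, against 40.4% of all genes, and the median log2 fold change was -0.06 over members and 0.12 over all genes. Without HepG2 parental replicate 1 the median over members was 0.01, and without HepG2 resistant replicate 2 it was -0.197. Some members passed the filter only through the group in which they were high. These were KMO (parental) and TAT and MAT1A (resistant) in Huh7, and HAL, CDO1, BCAT1 and TAT (parental) in HepG2. Of these, KMO in Huh7 and HAL and CDO1 in HepG2 are among the called members and had to be lower in resistant cells. The counts of lower members in both lines are therefore a description. TAT and MAT1A had to be higher in resistant Huh7, and both are among the 14 members higher there with the adjusted p-value alone. That count and the medians over members in both lines are a description too.

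**Figure D2:**
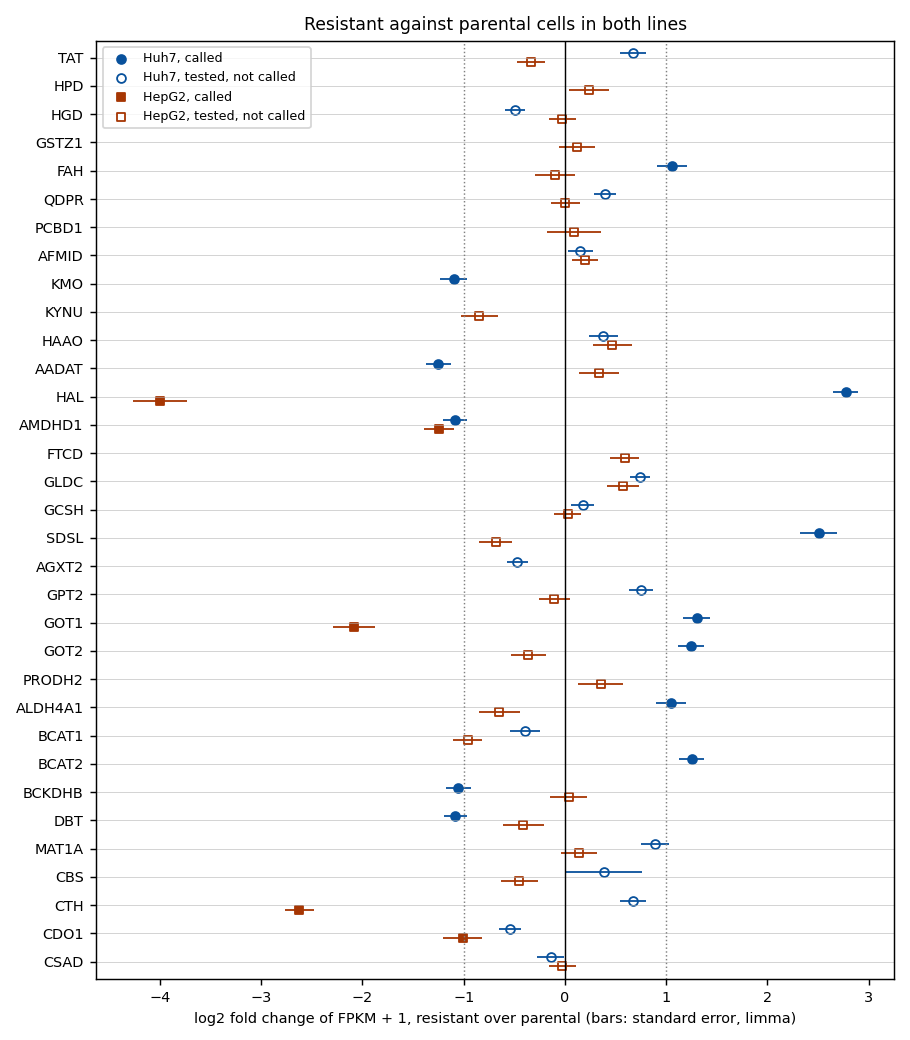
Log2 fold change of FPKM + 1 in resistant over parental cells for each tested member, with circles for Huh7, squares for HepG2, bars for the standard error and filled symbols for called members. HAL lies at 2.77 in Huh7 and -4.00 in HepG2, GOT1 lies on opposite sides of 0 in the 2 lines, and AMDHD1 lies below -1 in both.

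The histidine pathway held both the widest change in opposite directions and the one member called lower in both lines. HAL, histidine ammonia-lyase, removes ammonia from histidine to give urocanate and opens the pathway. Its gene lies on the minus strand of chromosome 12 (chr12:95972662-95996365, GRCh38). Parental Huh7 samples held 2.43, 2.84 and 2.19 FPKM of HAL and resistant Huh7 samples 20.9, 25.9 and 21.6 FPKM. In HepG2 the order was the opposite, with 32.2, 26.7 and 14.2 FPKM in parental and 0.551, 0.510 and 0.452 FPKM in resistant samples. The groups were apart in both lines, although parental HepG2 replicate 3 held less than its fellows. The mean rose 9.18-fold in resistant Huh7 (log2 fold change 2.77 ± 0.12, SE, adjusted p = 4.45e-06) and fell 48.3-fold in resistant HepG2 (log2 fold change -4.00 ± 0.27, adjusted p = 0.000157). In bulk RNA, fewer cells with the transcript and less transcript per cell cannot be told apart. In resistant HepG2, 40 to 48 reads lay behind each HAL value. HAL was tested in HepG2 only through the parental samples, so its fall there is given as a description.

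AMDHD1, the imidazolonepropionase of the same pathway, is the neighbour of HAL on chromosome 12, on the plus strand (chr12:95943293-95968716), with 3945 bases between the genes. It held 4.75, 5.24 and 5.37 FPKM in parental and 1.57, 2.16 and 1.96 FPKM in resistant Huh7 samples. In HepG2 it held 15.3, 15.9 and 16.7 FPKM in parental and 7.50, 5.72 and 5.41 FPKM in resistant samples. All resistant samples thus lay below all parental samples of their line, and AMDHD1 fell by 1.08 ± 0.12 on the log2 scale in Huh7 (adjusted p = 0.000114) and by 1.24 ± 0.15 in HepG2 (adjusted p = 0.00167). The Huh7 call was lost without resistant replicate 1, where the log2 fold change was -0.999. The difference between the 2 effects was 0.16 ± 0.18 (adjusted p = 0.464), so no difference between the lines was detected. In Huh7, then, the 2 neighbouring genes moved in opposite directions. FTCD, which hands the formimino group of histidine to tetrahydrofolate, held 2.92 to 3.20 FPKM in parental and 4.55 to 5.93 FPKM in resistant HepG2 (log2 fold change 0.59 ± 0.14, adjusted p = 0.0241), and UROC1, the urocanase between HAL and AMDHD1, was not tested.

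Of the serine dehydratases, which deaminate serine and threonine to keto acids, SDSL had the second-largest rise among members in Huh7. SDSL lies on chromosome 12 on the plus strand (chr12:113422237-113438276). Parental Huh7 samples held 4.78, 3.96 and 2.54 FPKM and resistant samples 28.0, 22.2 and 26.6 FPKM, a 6.80-fold rise of the mean with a log2 fold change of 2.504 ± 0.18 (adjusted p = 2.44e-05). HepG2 samples held much less, with 1.68, 2.64 and 2.61 FPKM in parental and 1.01, 1.11 and 0.996 FPKM in resistant cells. The log2 fold change there was -0.69 ± 0.17 (adjusted p = 0.0235), short of the fold threshold. SDS, the paralogue whose gene span overlaps that of SDSL on the other strand without shared exon bases, held 0.185 to 0.296 FPKM in parental and 0.673 to 1.10 FPKM in resistant Huh7 and was not tested.

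Both aspartate aminotransferases rose in resistant Huh7, and the cytosolic one fell in resistant HepG2. GOT1 is the cytosolic and GOT2 the mitochondrial enzyme, and together they carry the malate-aspartate shuttle. For GOT1 (chr10:99396870-99430624, minus strand), parental Huh7 samples held 14.5, 10.5 and 11.6 FPKM and resistant ones 34.0, 29.2 and 30.7 FPKM. Parental HepG2 samples held 133, 188 and 132 FPKM and resistant ones 29.4, 43.6 and 31.8 FPKM. The parental means of the lines were thus 12.4-fold apart. Resistant samples held 29.2 to 34.0 FPKM in Huh7 and 29.4 to 43.6 FPKM in HepG2, and these 2 groups were not tested against each other. GOT1 rose by 1.30 ± 0.13 on the log2 scale in Huh7 (adjusted p = 8.86e-05) and fell by 2.08 ± 0.20 in HepG2, where the mean fell 4.33-fold (adjusted p = 0.000709). It shares 19.3% of its exon bases with a long noncoding RNA on the other strand that was listed at no more than 0.0119 FPKM.

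GOT2 (chr16:58707131-58734357, minus strand) held 76.1, 69.4 and 57.5 FPKM in parental and 170.2, 153 and 161 FPKM in resistant Huh7. Its log2 fold change there was 1.25 ± 0.13 (adjusted p = 9.29e-05). In HepG2 it held 127, 175 and 125 FPKM in parental and 97.6, 119.8 and 112 FPKM in resistant cells, and the log2 fold change of -0.36 ± 0.17 did not pass the test (adjusted p = 0.174). As a share of the summed FPKM of both enzymes, GOT2 made up 48.6% ± 0.33 in parental and 76.0% ± 2.40 in resistant HepG2 (SD, n = 3; two-sided exact permutation test, p = 0.1, the smallest that 3 samples against 3 allow). In Huh7 the share was 84.7% ± 1.92 in parental and 83.8% ± 0.35 in resistant cells (exact permutation test, p = 0.7).

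Of the methionine and cysteine enzymes, CTH and CDO1 were called lower in resistant HepG2. CTH, cystathionine gamma-lyase, releases cysteine in the last step of transsulfuration (chr1:70411218-70439851, plus strand). Parental HepG2 samples held 37.3, 45.2 and 45.4 FPKM of CTH and resistant samples 5.94, 6.73 and 5.56 FPKM, a 7.01-fold fall (log2 fold change -2.62 ± 0.14, adjusted p = 6.34e-05). In Huh7, parental samples held 8.40, 7.38 and 8.33 FPKM and resistant samples 13.0, 15.7 and 11.7 FPKM. The log2 fold change of 0.67 ± 0.13 passed the adjusted p-value (adjusted p = 0.0016) but not the fold threshold. CBS, which makes cystathionine, overlapped between the Huh7 groups, with 0.665 to 4.11 FPKM in parental and 1.73 to 3.70 FPKM in resistant cells. In HepG2 its groups were apart, with 1.79 to 1.95 FPKM in parental and 0.722 to 1.68 FPKM in resistant cells. Its log2 fold changes were 0.38 ± 0.37 in Huh7 (adjusted p = 0.382) and -0.45 ± 0.18 in HepG2 (adjusted p = 0.116). Reads of CBS can be divided with its near-identical copy CBSL, which reached 2.21 FPKM in a parental HepG2 sample.

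CDO1, cysteine dioxygenase, takes cysteine towards taurine. It held 1.57, 1.00 and 1.98 FPKM in parental HepG2 and 0.297, 0.050 and 0.372 FPKM in resistant HepG2, where 11, 2 and 14 reads lay behind the values. CDO1 fell by 1.01 ± 0.19 on the log2(FPKM + 1) scale (adjusted p = 0.00999). It was tested in HepG2 only through the parental samples, so this fall is given as a description. The mean fell 6.33-fold, and limma-voom on reads put the log2 change at -2.95. It was no longer called without HepG2 resistant replicate 2, the sample with 2 reads, where the log2 fold change was -0.90. In Huh7, parental samples held 4.74, 4.77 and 4.07 FPKM and resistant samples 2.82, 2.84 and 2.72 FPKM. The groups were apart, and the log2 fold change was -0.54 ± 0.11 (adjusted p = 0.00189), short of the fold threshold. CSAD, which decarboxylates cysteine sulfinate in the next step, held 1.13 to 2.72 FPKM over all samples and did not pass in either line.

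**Figure D3:**
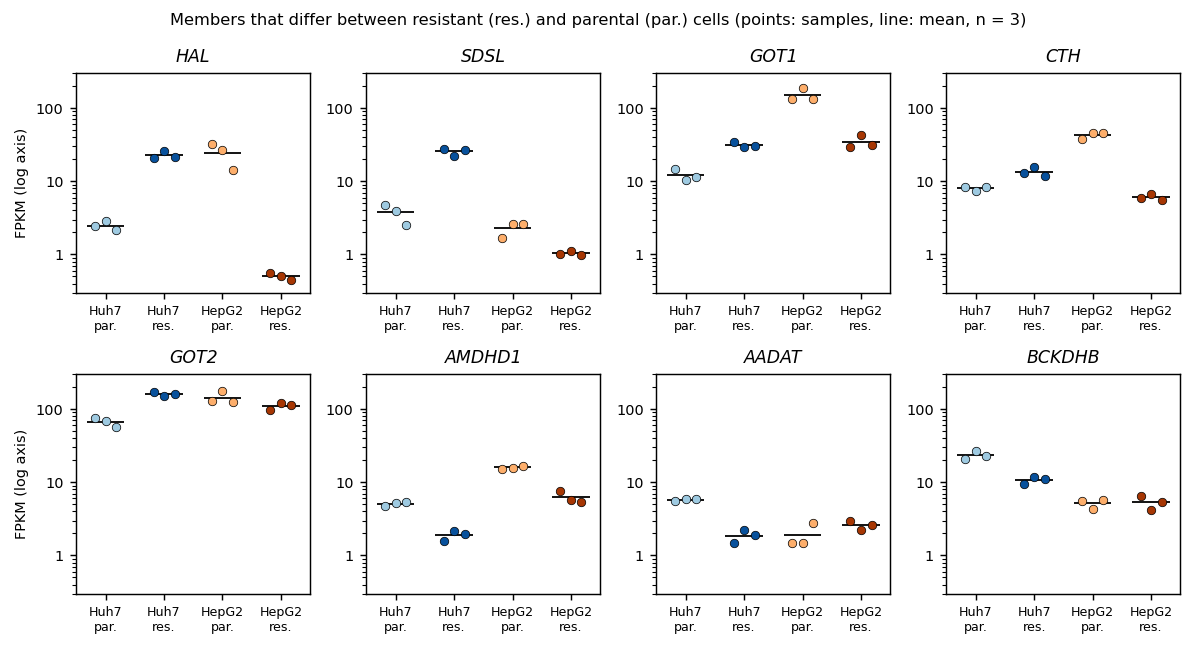
FPKM of 8 members in each sample on a log axis that is the same in all panels, with lines at the mean of 3 samples. HAL, SDSL, GOT1, CTH and GOT2 have a higher mean in resistant than in parental Huh7 and a lower mean in resistant than in parental HepG2, AMDHD1 is lower in resistant cells of both lines, and AADAT and BCKDHB are lower in resistant Huh7 alone.

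The sequences upstream of HAL, AMDHD1, GOT1 and CTH are shown because these 4 genes were the members called in HepG2 with the larger changes in log2(FPKM + 1). Each window holds the 250 bases before the RefSeq start, read 5′ to 3′ on the strand of the gene (RefSeq, GRCh38.p14). Capitals mark matches on either strand to 4 short motifs: TGATGNAA, the core of the amino acid response element bound by ATF4, CCAAT, the box bound by NF-Y, TATAAA, and GTTAAT, part of the site of the hepatocyte factor HNF1. The windows are chr12:95996345-95996594 for HAL, chr12:95943081-95943330 for AMDHD1, chr1:70411018-70411267 for CTH and chr10:99430625-99430874 for GOT1. Those of HAL, AMDHD1 and CTH reach into the gene spans given above, because the deposited spans of these genes begin upstream of the RefSeq start.
HAL: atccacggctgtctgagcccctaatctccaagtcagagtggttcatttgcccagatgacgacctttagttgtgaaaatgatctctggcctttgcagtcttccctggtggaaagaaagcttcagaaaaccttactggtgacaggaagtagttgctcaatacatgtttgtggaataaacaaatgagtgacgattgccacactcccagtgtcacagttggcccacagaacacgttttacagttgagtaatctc
AMDHD1: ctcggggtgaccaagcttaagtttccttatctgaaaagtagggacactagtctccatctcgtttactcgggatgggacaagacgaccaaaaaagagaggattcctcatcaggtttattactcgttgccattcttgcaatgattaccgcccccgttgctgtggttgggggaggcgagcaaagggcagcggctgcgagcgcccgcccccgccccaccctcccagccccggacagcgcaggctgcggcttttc
CTH: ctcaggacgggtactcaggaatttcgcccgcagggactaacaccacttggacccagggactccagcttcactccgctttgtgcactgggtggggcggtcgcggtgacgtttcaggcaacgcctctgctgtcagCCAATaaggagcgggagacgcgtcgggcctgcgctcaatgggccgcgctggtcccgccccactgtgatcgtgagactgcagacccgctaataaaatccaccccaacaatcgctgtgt
GOT1: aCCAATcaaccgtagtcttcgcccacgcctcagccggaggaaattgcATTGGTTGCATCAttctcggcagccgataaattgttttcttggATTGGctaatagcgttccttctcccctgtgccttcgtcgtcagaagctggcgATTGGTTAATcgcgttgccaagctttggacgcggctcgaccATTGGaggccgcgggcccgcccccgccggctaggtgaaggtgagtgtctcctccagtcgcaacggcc
The GOT1 window held TGATGNAA on the reverse strand starting 198 bases before the start, 5 copies of CCAAT starting 249, 203, 160, 108 and 67 bases before it, and GTTAAT starting 104 bases before it, which shares a base with a CCAAT copy. CTH held CCAAT starting 117 bases before the start. The windows of HAL and AMDHD1 held none of these letters, which says nothing about whether the factors act on them. TGATGNAA was found in 2 of 47 windows of members, those of GOT1 and BCAT1, and in 3.14% of all 35116 windows. CCAAT was found in 32.01%, TATAAA in 10.7% and GTTAAT in 6.23% of all windows. RefSeq windows were matched for 36 of the 43 members, and a match is a description of the sequence only.

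Of the branched-chain enzymes, BCAT2 rose and both BCKDHB and DBT fell in resistant Huh7. None was called in HepG2 by limma on log2(FPKM + 1), although limma-voom on reads (-2.73, adjusted p = 1.39e-05) and the fit with the GC trend removed (-1.06) called BCAT1 lower there. BCAT1 was tested in HepG2 only through the parental samples and had to be lower, so its fall there is given as a description in every fit. BCAT1, the cytosolic, and BCAT2, the mitochondrial branched-chain aminotransferase, make the keto acids of leucine, isoleucine and valine, and BCKDHB and DBT are the E1 beta and E2 subunits of the complex that oxidises them. BCAT2 (chr19:48795062-48811029, minus strand) held 4.41, 4.65 and 3.77 FPKM in parental and 11.7, 10.2 and 12.8 FPKM in resistant Huh7, a rise of 1.25 ± 0.12 on the log2 scale (adjusted p = 7.19e-05). BCKDHB held 21.0, 26.4 and 23.2 FPKM in parental and 9.56, 11.97 and 10.9 FPKM in resistant Huh7. DBT held 6.41, 7.36 and 7.74 FPKM in parental and 2.69, 3.20 and 2.69 FPKM in resistant Huh7. Both subunits were separated between the groups and fell, by 1.05 ± 0.12 (adjusted p = 0.000157) and by 1.08 ± 0.12 (adjusted p = 0.000104). The BCKDHB call was lost without Huh7 resistant replicate 1 and without Huh7 parental replicate 2, where the log2 fold change was as small as -0.97. BCAT1 overlapped between the Huh7 groups (log2 fold change -0.39 ± 0.15, adjusted p = 0.0442).

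In HepG2, BCKDHB held 5.57, 4.30 and 5.65 FPKM in parental and 6.50, 4.22 and 5.37 FPKM in resistant samples, and DBT held 4.14, 2.61 and 4.35 FPKM in parental and 3.18, 1.99 and 2.35 FPKM in resistant samples. Both genes overlapped between the groups and neither passed (adjusted p = 0.907 and 0.181). BCAT1 was low in this line, with 1.39, 1.14 and 1.48 FPKM in parental and 0.196, 0.265 and 0.143 FPKM in resistant samples (log2 fold change -0.96 ± 0.14, adjusted p = 0.00376, short of the fold threshold). BCAT2 held 0.625 to 0.786 FPKM in parental and 0.843 to 1.05 FPKM in resistant HepG2 and was not tested there.

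As a share of the summed FPKM of both aminotransferases, BCAT2 made up 12.1% ± 2.51 in parental and 32.9% ± 5.60 in resistant Huh7 (SD, n = 3). The same share was 34.4% ± 2.42 in parental and 82.3% ± 3.17 in resistant HepG2. The resistant samples lay above the parental samples in both lines (exact permutation test, two-sided, p = 0.1 for Huh7 and for HepG2, which is the lowest value possible with 3 against 3). The sum itself was 36.02 ± 4.79 and 35.4 ± 2.22 FPKM in parental and resistant Huh7 and 2.04 ± 0.23 and 1.12 ± 0.17 FPKM in HepG2. The transcripts differ in GC content, with 37.9% in BCAT1 and 60.5% in BCAT2, and in Huh7 the change of all genes followed GC content, as described further on.

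**Figure D4:**
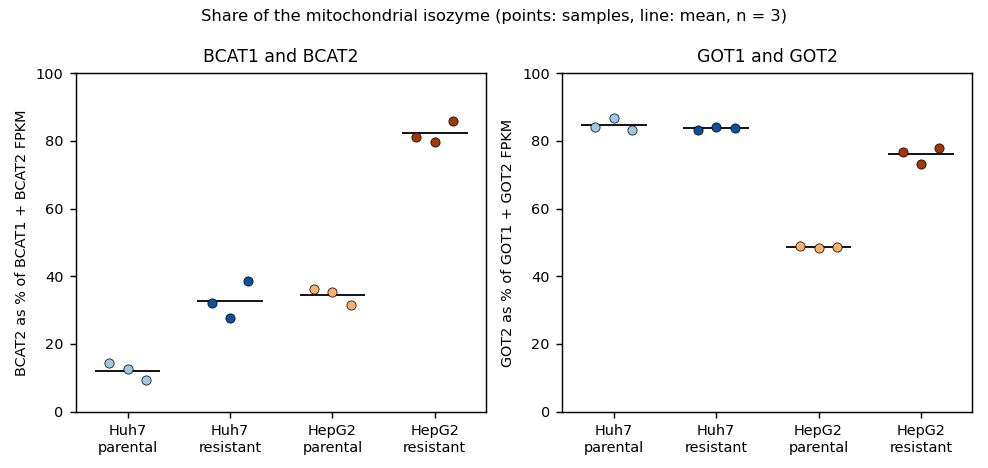
Mitochondrial isozyme as a percentage of the summed FPKM of the cytosolic and mitochondrial isozymes in each sample, with lines at the mean of 3 samples. The BCAT2 share is higher in resistant cells of both lines, from a mean of 12.1% to 32.9% in Huh7 and from 34.4% to 82.3% in HepG2, whereas the GOT2 share is higher in resistant HepG2 alone.

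In the phenylalanine and tyrosine pathway, 1 of the 4 members tested in Huh7 was called (8.59% of all genes higher and 14% lower). None of the 7 tested in HepG2 was called (3.29% of all genes higher and 2.98% lower). FAH, fumarylacetoacetate hydrolase, carries out the last step. It held 3.06, 2.03 and 2.28 FPKM in parental and 7.04, 5.41 and 6.05 FPKM in resistant Huh7, a rise of 1.06 ± 0.15 on the log2 scale (adjusted p = 0.00031), no longer called without Huh7 resistant replicate 1 (0.97) and without Huh7 parental replicate 2. HepG2 samples held 6.38, 9.91 and 6.75 FPKM in parental and 5.98, 8.51 and 6.63 FPKM in resistant cells (adjusted p = 0.744). HGD, homogentisate dioxygenase, was abundant in every sample, with 104 to 114 FPKM in parental and 74.2 to 78.4 FPKM in resistant Huh7 (log2 fold change -0.50 ± 0.10, adjusted p = 0.00218) and 64.7 to 76.1 FPKM over the HepG2 samples. TAT, tyrosine aminotransferase, which starts tyrosine breakdown, held 0.608, 0.318 and 0.343 FPKM in parental and 1.00, 1.38 and 1.41 FPKM in resistant Huh7, but 1.06, 1.204 and 1.25 FPKM in parental and 0.743, 0.728 and 0.688 FPKM in resistant HepG2. The TAT groups were apart in both lines, with log2 fold changes of 0.67 ± 0.13 in Huh7 and -0.33 ± 0.14 in HepG2 (adjusted p = 0.00179 and 0.115). TAT was tested only through the resistant samples in Huh7 and only through the parental samples in HepG2. Its direction and lack of overlap followed from that in each line and are given as a description. QDPR, which regenerates the cofactor tetrahydrobiopterin, had log2 fold changes of 0.40 and 0.00, and GSTZ1 and PCBD1 held under 4 FPKM in all samples.

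The tryptophan and kynurenine members called in Huh7 were both lower in resistant cells. AADAT, kynurenine and aminoadipate aminotransferase, held 5.48, 5.95 and 5.94 FPKM in parental and 1.49, 2.19 and 1.92 FPKM in resistant Huh7, and fell by 1.25 ± 0.12 on the log2 scale (adjusted p = 7.57e-05). HepG2 samples held 1.48, 1.47 and 2.75 FPKM of AADAT in parental and 2.99, 2.24 and 2.59 FPKM in resistant cells (adjusted p = 0.255), and the groups overlapped. KMO, kynurenine 3-monooxygenase, held 1.33, 1.55 and 2.16 FPKM in parental and 0.213, 0.209 and 0.301 FPKM in resistant Huh7, and fell by 1.10 ± 0.13 on the log2(FPKM + 1) scale (adjusted p = 0.000178). As KMO was tested only through the parental samples, this fall is given as a description. Limma-voom on reads put the log2 change at -2.83, and the fit with the GC trend removed put it at -0.37. KMO shares 28.4% of its exon bases with OPN3 on the other strand, and OPN3 itself held 7.59 to 8.80 FPKM in parental and 3.13 to 3.71 FPKM in resistant Huh7. Since the kit named in the labels is not stated to keep the strand, reads of the 2 genes may not have been told apart. In HepG2, KMO held 0.0641 to 0.282 FPKM in parental and 0.0552 to 0.0684 FPKM in resistant cells.

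KYNU, kynureninase, cleaves kynurenine to anthranilate. It held 4.18, 3.21 and 4.96 FPKM in parental and 2.28, 1.49 and 1.73 FPKM in resistant HepG2 (log2 fold change -0.85 ± 0.18, adjusted p = 0.0153), and 0.196, 0.216 and 0.253 FPKM in parental and 0.566, 0.586 and 0.445 FPKM in resistant Huh7, under the filter. The groups were apart in both lines, in opposite directions. HAAO and AFMID, which act further along and near the start of the pathway, did not pass both thresholds in either line, with HAAO at 0.38 ± 0.14 in Huh7 (adjusted p = 0.0406) and 0.47 ± 0.19 in HepG2 (adjusted p = 0.12).

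Among the remaining members, ALDH4A1 was the only one called between resistant and parental cells. It oxidises the glutamate semialdehyde made from proline, and held 7.64, 6.34 and 5.28 FPKM in parental and 16.05, 12.3 and 14.5 FPKM in resistant Huh7. ALDH4A1 rose by 1.04 ± 0.15 on the log2 scale (adjusted p = 0.000373), a call lost without Huh7 resistant replicate 1 and without Huh7 parental replicate 3 (0.93 at the lowest). HepG2 samples held 42.8, 53.6 and 33.1 FPKM in parental and 22.5, 31.5 and 26.7 FPKM in resistant cells, which did not overlap (log2 fold change -0.65 ± 0.20, adjusted p = 0.0568). It shares 41.1% of its exon bases with a readthrough gene on the same strand that was listed at no more than 0.223 FPKM. GLDC, the decarboxylase of the glycine cleavage system, was higher in resistant cells of both lines by the adjusted p-value but not the fold, at 0.74 ± 0.10 in Huh7 (adjusted p = 0.000306) and 0.57 ± 0.16 in HepG2 (adjusted p = 0.0387). GCSH, its lipoyl carrier protein, did not pass in either line (adjusted p = 0.194 and 0.901). GPT2, the mitochondrial alanine aminotransferase, made up 94.4 to 97.5% of the summed FPKM with GPT in the Huh7 samples and 98.1 to 99.6% in the HepG2 samples, and had log2 fold changes of 0.75 ± 0.12 in Huh7 (adjusted p = 0.000613) and -0.10 ± 0.15 in HepG2 (adjusted p = 0.656). BHMT, GNMT and AGXT, which act on homocysteine, glycine and glyoxylate, were not tested in either line and stayed at or below 1.43 FPKM.

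The called changes in Huh7 went with the GC content of the transcripts. The 7 higher members had a GC content of 47.5 to 61.6% and the 5 lower members one of 38.9 to 44.9%, so the ranges did not overlap. Over all genes tested in Huh7, the median log2 fold change was -0.61 for the 5420 genes under 45% GC, 0.21 for the 4167 genes from 45% to under 55%, and 0.52 for the 2958 genes from 55%. The corresponding medians in HepG2 were 0.12, 0.08 and 0.18. When the GC trend of each library was removed, the called members in Huh7 were 3 higher (HAL at 2.72, SDSL at 1.98 and CTH at 1.01) and none lower. Over all 12554 genes the same step gave 703 higher and 787 lower instead of 1079 and 1759. At an unadjusted p-value under 0.05, 14 members were higher and 10 lower after this step, and the share of all genes at that threshold is not given here. Limma-voom on reads without this step called 9 members higher and 5 lower, against 1435 and 2844 of all 12552 genes. The 9 include TAT and MAT1A, which passed the filter only through resistant Huh7 and had to be higher. The 12 members called without this step kept their direction, with GOT2 at 0.99, GOT1 at 0.91, AMDHD1 at -0.90 and AADAT at -0.78. The other calls that were lost shrank more, with FAH and BCAT2 at 0.72, ALDH4A1 at 0.51, BCKDHB at -0.43, DBT at -0.38 and KMO at -0.37. Among members not called, BCAT1 turned from -0.39 to 0.41 and HAAO from 0.38 to -0.13. In HepG2 the same step gave none higher and 6 lower, adding BCAT1 at -1.06. Over all 11762 genes tested there it gave 279 higher and 444 lower instead of 387 and 350. Of the 6, HAL, CDO1 and BCAT1 passed the filter only through parental HepG2 and had to be lower. The part of GC content in the Huh7 changes was not tested.

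**Figure D5:**
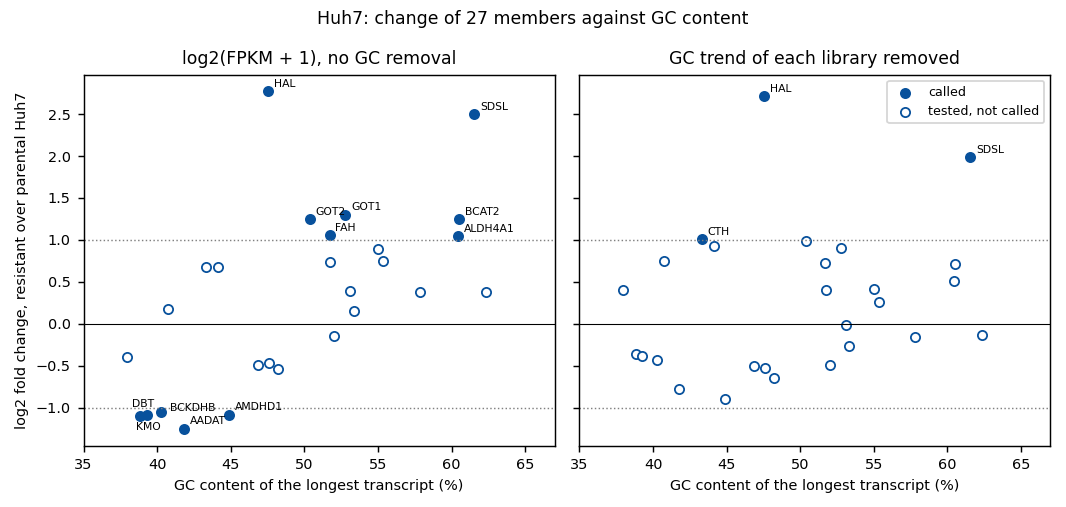
Log2 fold change of the 27 members tested in Huh7 against the GC content of their longest transcript, on the left from log2(FPKM + 1) and on the right once each library's GC trend had been taken out, with filled points for called members. On the left the lower members lie at 38.9 to 44.9% GC and the higher ones from 47.5%, and on the right HAL, SDSL and CTH are the called members.

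The difference between the lines was tested as the interaction of line and resistance in all 12 samples, which use each group's own samples. Of 31 members tested, 10 had a more positive effect in Huh7 (10.8% of all 12088 genes) and 2 a more negative one (17.5% of all genes). With the adjusted p-value alone, the counts were 13 and 6, against 23.7% and 31.9% of all genes. HAL differed by 6.77 ± 0.32 on the log2 scale (adjusted p = 1.82e-07), GOT1 by 3.38 ± 0.25 (adjusted p = 2.59e-06), CTH by 3.30 ± 0.18 (adjusted p = 2.86e-07) and SDSL by 3.19 ± 0.25 (adjusted p = 3.96e-06). ALDH4A1, GOT2, KYNU, FAH, BCAT2 and TAT differed by 1.69, 1.61, 1.17, 1.16, 1.08 and 1.01. TAT reached 1 FPKM only in resistant Huh7 and parental HepG2, the groups whose height makes this difference positive, so its call follows in part from the filter. AADAT and BCKDHB had the more negative effect in Huh7, by -1.59 ± 0.23 (adjusted p = 0.000205) and -1.09 ± 0.22 (adjusted p = 0.00137). The BCKDHB and FAH differences were -0.40 and 0.89 after removal of the GC trend and were then not called, as was BCAT2 at 0.74.

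The parental lines already differed in many of these genes. Of 32 members tested between them, 7 were higher in parental Huh7 (19.4% of all 12796 genes) and 15 lower (12.5% of all genes). With the adjusted p-value alone, 13 were higher (39% of all genes) and 17 lower (26.2%). KMO, AGXT2 and BCAT2 passed the filter only through Huh7, and TAT, HPD, KYNU, MAT1A and PRODH2 only through HepG2. All of these but TAT are among the called members and had to differ, so the counts are a description. The median log2 difference, Huh7 minus HepG2, was -0.66 over members and 0.19 over all genes, but the median over members was 0.36, 0.49 and 0.46 without HepG2 parental replicate 1, 2 or 3, when 27 members could be tested. The 6 widest differences were those of MAT1A, HPD, BCAT1, GOT1, AGXT2 and PRODH2.

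MAT1A, the liver form of methionine adenosyltransferase, held 53.2, 74.7 and 65.6 FPKM in parental HepG2 and 0.861, 0.917 and 0.520 FPKM in parental Huh7, a log2 difference of -5.21 ± 0.17. MAT1A and HPD were tested only through parental HepG2, so these differences are given as a description. Resistant Huh7 samples held 2.73, 2.08 and 2.02 FPKM of MAT1A and resistant HepG2 samples 60.6, 82.3 and 70.6 FPKM (log2 fold changes 0.89 ± 0.14, adjusted p = 0.000567, and 0.14 ± 0.18, adjusted p = 0.594). Between the Huh7 groups MAT1A was tested only through the resistant samples, so its rise there is also a description. HPD, which turns hydroxyphenylpyruvate into homogentisate just before HGD, held 24.7, 31.0 and 23.5 FPKM in parental HepG2 and 0.301, 0.294 and 0.278 FPKM in parental Huh7 (-4.40 ± 0.15). Resistant cells kept this order, with 23.7, 38.2 and 33.3 FPKM in HepG2 and 0.213, 0.140 and 0.0946 FPKM in Huh7. HGD was thus abundant in Huh7 beside an HPD level under 1 FPKM.

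BCAT1 held 26.4, 32.3 and 36.5 FPKM in parental Huh7 against 1.39, 1.14 and 1.48 FPKM in parental HepG2 (log2 difference 3.80 ± 0.15, adjusted p = 4.92e-07), and 24.7, 26.8 and 20.2 FPKM in resistant Huh7. GOT1 lay 3.52 ± 0.19 lower in parental Huh7 on the log2 scale (-3.52, adjusted p = 1.61e-06). AGXT2, a mitochondrial aminotransferase for alanine and glyoxylate, held 9.18, 8.62 and 8.06 FPKM in parental and 5.87, 6.38 and 5.56 FPKM in resistant Huh7, but no more than 0.0644 FPKM, or 4 reads, in any HepG2 sample. PRODH2, hydroxyproline dehydrogenase, held 6.19, 8.07 and 9.03 FPKM in parental and 7.24, 13.3 and 10.6 FPKM in resistant HepG2, and 0.102, 0 and 0.0227 FPKM in parental and 0.212, 0.0759 and 0.289 FPKM in resistant Huh7. The pseudocount sets the size of such differences, which were 3.21 for AGXT2 and -3.06 for PRODH2 in limma on log2(FPKM + 1) and 7.53 and -7.73 in limma-voom on reads.

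Of 58 other genes of amino acid catabolism, 48 were tested in Huh7, with 6 higher (against 8.59% of all genes) and 2 lower (against 14%). In HepG2 46 were tested, with none higher (against 3.29% of all genes). There, 12 were higher at an unadjusted p-value under 0.05 in limma, and limma-voom called 2 higher, against 683 of all 11760 genes. The largest rises in Huh7 were those of GGT1, the gamma-glutamyltransferase of glutathione breakdown (1.54 to 1.90 FPKM in parental and 6.37 to 8.75 FPKM in resistant cells), DDC, aromatic amino acid decarboxylase (17.4 to 19.8 and 48.9 to 52.1 FPKM), and HSD17B10, which acts in isoleucine breakdown (39.5 to 55.3 and 94.7 to 114 FPKM). The 2 lower genes were PCCA, a propionyl-CoA carboxylase subunit (3.88 to 5.01 FPKM in parental and 0.938 to 1.28 FPKM in resistant cells), and the kynurenine aminotransferase KYAT3 (7.81 to 10.2 and 3.37 to 4.09 FPKM). After removal of the GC trend, GGT1, DDC and PCCA were still called and HSD17B10 and KYAT3 were not.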

How the data were processed

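RNA-seq tables of 12 samples, 3 in each of 4 groups taken from the labels, were analysed. Per the labels, reads were handled with bcl2fastq on build GRCh38; the aligner and counter are not given in the sources used here. The deposited values carry no unit; they behave as FPKM, made by the authors, since value times exon length (GENCODE release 29) falls on whole multiples of a step per sample, with 96.4% of values of up to 2000 reads within 0.05 of a whole read. RPKM and FPKM cannot be told apart. Rows under NONCODE identifiers were left out of the tests. Models used limma 3.58.1 in R 4.3.3 on log2(FPKM + 1) with a trend, among genes at 1 FPKM in at least 3 of 6 samples (6 of 12 for the interaction), and Python 3.11.15. The fit was tested on simulated data. Members and gene lists were chosen with earlier results of these data known. Values are printed for every member called in a line or in the difference between lines, for the 6 widest differences between parental lines, and for at most 3 other genes per direction and line. A gene that this rule selects is not reported here. Alternatives were a pseudocount of 0.1, no filter, median-ratio scaling, removal of each library's GC trend (lowess), limma-voom on reads, no fold threshold, leaving out each replicate, all 12 samples in one fit, and the replicate number as a block.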

Additional observations from a re-analysis of the deposited data

Results flagged for a closer look

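For 12 members the resistance effect differed between Huh7 and HepG2 in the test of the difference itself (Huh7 minus HepG2, log2). The positive differences were 6.77 for HAL, 3.38 for GOT1, 3.30 for CTH, 3.19 for SDSL, 1.69 for ALDH4A1, 1.61 for GOT2, 1.17 for KYNU, 1.16 for FAH, 1.08 for BCAT2 and 1.01 for TAT. The negative ones were -1.59 for AADAT and -1.09 for BCKDHB. HAL, GOT1, CTH, SDSL, ALDH4A1, GOT2, KYNU and AADAT were called in every alternative in which they could be tested. KYNU, under 1 FPKM in every Huh7 sample, could be tested in only 6 of the 12 fits that left out 1 replicate. TAT reached 1 FPKM only in resistant Huh7 and parental HepG2, and was not called without Huh7 parental replicate 2 or 3 or HepG2 resistant replicate 3, where its difference was as small as 0.95. FAH was not called without HepG2 parental replicate 2 (0.98), and BCKDHB not without that sample or HepG2 resistant replicate 1 (as small as -0.96). BCAT2 was not called after removal of each library's GC trend (0.74) or in limma-voom on reads, and FAH and BCKDHB were not called after that removal either (0.89 and -0.40); the part of GC content was not tested.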

How the results depend on the processing

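The counts of called members depended most on the GC trend and the fold threshold. With the GC trend of each library removed, Huh7 gave 3 higher and 0 lower members instead of 7 and 5; the cause was not tested. Without the fold threshold, Huh7 gave 14 higher and 9 lower, HepG2 2 higher and 8 lower, the difference between lines 6 with a lower effect in Huh7, and the parental comparison 13 higher in Huh7, since a looser rule calls more genes. In HepG2, a pseudocount of 0.1 and limma-voom on reads each gave 8 lower members instead of 5. Over all genes they gave 489 and 493 lower instead of 350. Median-ratio scaling left 1 member with a lower effect in Huh7 instead of 2. Fits that left out 1 replicate gave 5 to 7 higher and 3 to 5 lower members in Huh7 (3 without resistant replicate 1 or parental replicate 2), 0 higher and 3 to 5 lower in HepG2, 7 to 11 and 1 to 3 for the difference between lines, and 4 to 7 higher and 9 to 15 lower between parental lines. HepG2 gave 3 lower without any one parental replicate, because HAL and CDO1 then had too few samples at 1 FPKM to be tested. With a replicate block, the counts were 7 and 5 in Huh7, 0 and 5 in HepG2, 10 and 2 for the difference and 7 and 15 between parental lines, and no call of a named member changed. Same-numbered resistant and parental samples correlated in their deviations at -0.22 to 0.43, so the numbers were not treated as pairs. With the GC trend removed, members not called in Huh7 turned sign, among them BCAT1 (-0.39 to 0.41), HAAO (0.38 to -0.13), CBS (0.38 to -0.15) and AFMID (0.15 to -0.27).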
